A study of Zea mays with 12 samples.

Results

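Genes named for the endosperm were followed through the kernels of a maize small-kernel mutant. They were *BETL4* (*Zm00001d000161*, basal endosperm transfer layer4), *du1* (*Zm00001d000002*, dull endosperm1) and *esp1* (*Zm00001d000418*, endosperm specific protein1), chosen by their gene identifiers, and they are 3 of the 720 genes of the expression table analysed here. RNA was sequenced from whole kernels of the WT and of *smk7a*, a recessive mutant from a chemically mutagenized (EMS) library in the inbred line B73, at 12 and 20 days after pollination (DAP). Mutant and WT kernels came from the same ears of selfed heterozygous plants, because no normal plants arise from *smk7a* kernels. Each of the 4 groups of genotype and stage had 3 biological replicates, and thus there were 12 samples. The sources used here do not say whether the WT kernels were homozygous or heterozygous, which ears or how many kernels went into a replicate, or that the ears of the 12 and 20 DAP kernels were the same. The labels name no mutated gene, and no targeted gene was used to check them.

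The endosperm is the nutritive tissue of the kernel, and it holds the starchy endosperm, the aleurone around it and a basal endosperm transfer layer (BETL). The BETL lies at the base of the kernel, against the maternal tissue, where transfer cells with dense wall ingrowths take up sugars and amino acids for the filling grain. The starchy endosperm turns these sugars into starch inside the amyloplasts. *BETL4* is a marker of the transfer layer and encodes a small protein related to plant inhibitors of proteases and amylases. *du1* encodes starch synthase III, which lengthens the glucan chains of amylopectin, and mutants in it have kernels with a dull, tarnished endosperm. The role of *esp1* is less clear. The annotation deposited with the table gives it the synonym FLA2, a fasciclin-like arabinogalactan protein in *Arabidopsis*, and the terms cell wall and anchored to the plasma membrane. The annotation of *du1* lists starch synthase activity, amyloplast and starch biosynthetic process, and that of *BETL4* has no such terms.

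Expression was given as FPKM, mapped fragments per kilobase of transcript relative to all mapped fragments of the library, which allows levels of genes of unequal length to be set side by side. The depth behind each value is unknown from FPKM alone, so no counting error was computed, and each error given is an SD over replicates or the standard error (SE) of a limma fit. For weak genes, the median of each library relative to the lowest value of a gene differed by at most 1.04-fold between the libraries. Only values within 1.3-fold of that lowest value were kept, which holds such a difference small at any depth. Nothing about depth was concluded from it. Of the 720 genes, 153 had no FPKM above 0, and 375 exceeded 1 FPKM in 3 or more of the 12 samples. Summed over the table, the WT had 4261 to 4828 FPKM at 12 DAP and 2864 to 3257 FPKM at 20 DAP. The sums of *smk7a* were larger, 5800 to 5853 FPKM at 12 DAP and 4175 to 4525 FPKM at 20 DAP. The table is a part of the genome, and why its totals differ between the groups was not tested. Differences were tested with limma on log2(FPKM + 0.1) over the genes that exceeded 1 FPKM in 3 or more samples of the groups compared. A gene was counted as higher or lower with an adjusted *p* value below 0.05 and a fold change above 2, and an alternative brought the libraries to a common median gene before the test (median of ratios scaling).

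In the WT at 12 DAP the 3 genes were among the most strongly expressed of the table. *BETL4* was at 271, 252 and 258 FPKM in replicates 1, 2 and 3, and *esp1* at 200.1, 238 and 217 FPKM. *BETL4* held rank 2 from the highest and *esp1* rank 3 in each of the 3 libraries. *du1* was lower, at 53.7, 58.5 and 44.5 FPKM, and held ranks 13, 11 and 13. The order was thus *BETL4*, *esp1*, *du1*, with mean levels 1.19-fold apart for the upper pair and 4.18-fold apart for the lower pair, and no ranges overlapped. *BETL4* made up 5.65 ± 0.387% (SD, n = 3) of the summed FPKM of the table, *esp1* 4.74 ± 0.517% and *du1* 1.13 ± 0.0908%.

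In *smk7a* at 12 DAP all 3 genes were at lower levels, and the order of the upper pair was turned. *BETL4* was at 67.5, 90.0 and 81.8 FPKM, and its highest value lay far below the lowest of the WT. *du1* was at 17.7, 9.08 and 17.7 FPKM, where replicate 2 was the lowest. *esp1* was at 110.0, 159 and 115 FPKM, and here replicate 2 was the highest. The order was *esp1*, *BETL4*, *du1*, with mean levels 1.61-fold and 5.38-fold apart and no overlap of the ranges. *BETL4* held ranks 17, 8 and 11, *du1* ranks 81, 161 and 80, and *esp1* ranks 7, 2 and 5. *esp1* thus stayed among the leading genes of the table, while *du1* left the upper ranks it had in the WT.

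In the WT at 20 DAP, the replicates of *BETL4* had 124, 88.0 and 132 FPKM, those of *du1* 36.3, 31.7 and 28.7 FPKM, and those of *esp1* 171, 162 and 158 FPKM. *esp1* was the highest of the 3 genes at this stage, 1.43-fold above *BETL4*, which was 3.56-fold above *du1*, and the ranges did not overlap. In *smk7a* at 20 DAP, *BETL4* was at 54.7, 151 and 156 FPKM, so that replicate 1 stood well below the other two. *du1* was at 26.8, 28.1 and 27.2 FPKM, the tightest set of replicates of any of the 3 genes. *esp1* was at 102, 141 and 139 FPKM, again with replicate 1 the lowest. The means of *esp1* and *BETL4* in *smk7a* at 20 DAP differed by 1.06-fold and their ranges overlapped, whereas *du1* lay 4.41-fold below *BETL4* with no overlap. The plot of expression by group shows every replicate of the 3 genes.

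**Figure D1:**
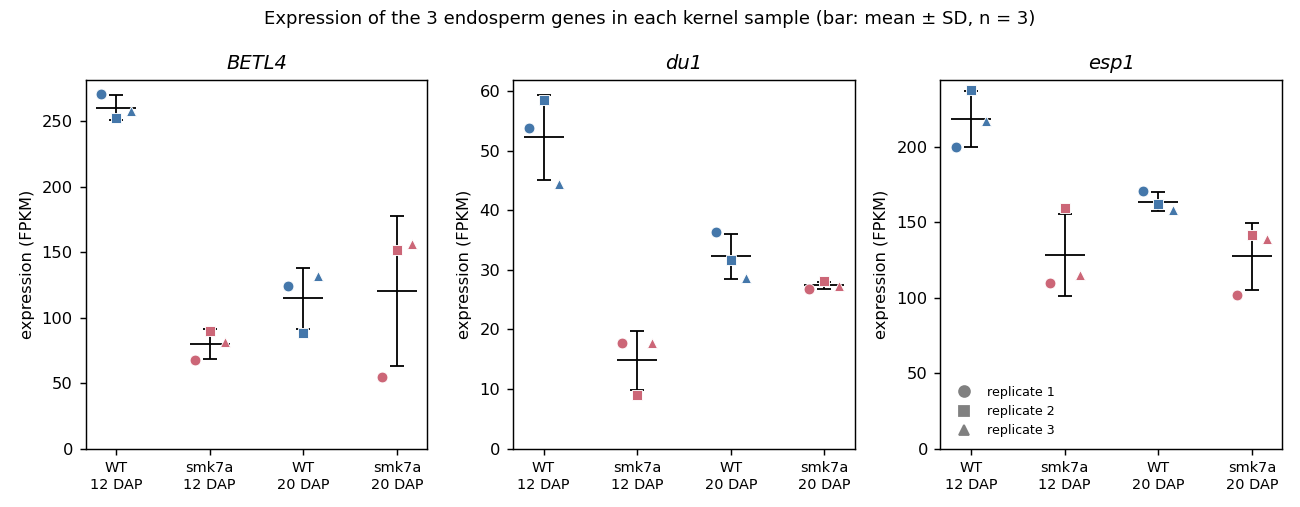
Expression (FPKM, linear axis from 0) of *BETL4*, *du1* and *esp1* in each kernel sample, by genotype and stage. Symbols are replicates 1 to 3 and bars the mean ± SD (n = 3): *BETL4* in the WT at 12 DAP sits between 252 and 271 FPKM, above every other group, while in *smk7a* at 20 DAP it spreads from 54.7 to 156 FPKM.

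The effect of the mutation at 12 DAP was tested over 365 genes, whose median log2 difference of *smk7a* to the WT was 0.48. *BETL4* and *du1* were lower in *smk7a*, by 3.28-fold and 3.64-fold, and held places 9 and 7 from the lowest among the genes tested. The log2 difference was -1.71 for *BETL4* (SE 0.13, adjusted *p* = 0.000116 from limma) and -1.86 for *du1* (SE 0.27, adjusted *p* = 0.00151). With single replicates left out, *BETL4* ranged from -1.81 to -1.60. *du1* ranged from -2.02 to -1.55, smallest in size without replicate 2 of *smk7a*. Median of ratios scaling gave -2.20 and -2.35, respectively. Lower past both thresholds were 4.11% of the genes tested. *esp1* was 1.72-fold lower, at 128 ± 27.3 FPKM against 218 ± 18.7 FPKM (SD, n = 3 each). Its log2 difference was -0.79 (SE 0.16, 95% CI -1.16 to -0.41, adjusted *p* = 0.00590 from limma), so it passed the adjusted *p* value but not the fold change of 2. Lower by the adjusted *p* value alone were 7.67% of the genes tested. The *smk7a* values of all 3 genes lay below all WT values, which 9.04% of the genes tested did (two-sided exact permutation test, *p* = 0.1 for each, the smallest that 3 samples against 3 allow). Under median of ratios scaling (median of the genes tested 0.01) the log2 difference of *esp1* was -1.27 (adjusted *p* = 0.00176), and it passed both thresholds, as did 8.22% of the genes tested in that direction. Leaving out single replicates gave -0.95 to -0.69 for *esp1*, with an adjusted *p* of at most 0.0270.

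At 20 DAP *BETL4* and *du1* were much closer between the genotypes on the deposited scale, and none of the 3 genes passed both thresholds. In this comparison 336 genes were tested, with a median log2 difference of 0.53, and 1.49% of them were lower past both thresholds. The mean of *esp1* was 127 ± 22.3 FPKM in *smk7a* against 164 ± 6.40 FPKM (SD, n = 3) in WT kernels, a log2 difference of -0.38 (SE 0.13, 95% CI -0.68 to -0.07, adjusted *p* = 0.0317 from limma). The adjusted *p* value alone was passed in this direction by 4.17% of the genes tested. The 95% CI of the log2 difference was -0.47 to 0.02 for *du1* and -0.91 to 0.81 for *BETL4*, so the interval of *BETL4* leaves room for a sizeable difference in either direction. With single replicates left out, *BETL4* ranged from -0.31 to 0.44 and changed sign in 3 of 6 fits (adjusted *p* 0.0384 to 0.977 from limma). *du1* then ranged from -0.31 to -0.14 (adjusted *p* 0.0408 to 0.198). The values of *esp1* and *du1* in *smk7a* lay below all WT values, as did those of 5.36% of the genes tested, and the values of *BETL4* overlapped. Most genes of the table had higher FPKM in *smk7a* at this stage, and *BETL4*, *du1* and *esp1* were lower than the median gene by 0.59, 0.76 and 0.91 on the log2 scale. The adjusted *p* of *esp1* lay above 0.05 when any WT replicate of 20 DAP was left out, at 0.0971, 0.0763 and 0.0615 without WT replicates 1, 2 and 3. It was 0.0575 without the trend in the variance, 0.0809 with no filter on low FPKM and 0.0567 in 1 fit over all 12 samples. The difference of *esp1* itself ranged from -0.46 to -0.22 when single replicates were left out, and was nearest to 0 without replicate 1 of *smk7a*. After median of ratios scaling the differences at 20 DAP were -0.94 for *esp1* (adjusted *p* = 0.00182) and -0.80 for *du1* (adjusted *p* = 0.00162), which then passed the adjusted *p* value as well, and -0.62 for *BETL4* (adjusted *p* = 0.252). All 3 stayed below the fold change of 2.

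From 12 to 20 DAP, the WT kernels had lower FPKM of all 3 genes, but so had most genes of the table. Of 344 genes tested, with a median log2 difference of -0.55, *BETL4* fell by 1.20 on the log2 scale (SE 0.13, 95% CI -1.49 to -0.92, adjusted *p* = 8.52e-05 from limma), a 2.30-fold change and place 35 from the lowest. Lower past both thresholds were 15.7% of the genes tested. *du1* had a log2 difference of -0.69 (SE 0.15, adjusted *p* = 0.00305) and *esp1* of -0.41 (SE 0.09, adjusted *p* = 0.00250), both below the fold change of 2, and 56.7% of the genes tested were lower by the adjusted *p* value alone. All 3 genes had no WT value of 20 DAP inside the range of 12 DAP, as 63.1% of the genes tested did in this direction. Compared with the median gene, *BETL4* was lower by 0.66 on the log2 scale and *du1* by 0.15, while *esp1* was above it by 0.13. Under median of ratios scaling the difference of *BETL4* was -0.65 (adjusted *p* = 0.00784), which no longer passed the fold change of 2, that of *du1* was -0.14 (adjusted *p* = 0.422), and that of *esp1* turned to 0.14 (adjusted *p* = 0.320).

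In *smk7a*, *du1* was higher at 20 than at 12 DAP by the adjusted *p* value, while *BETL4* and *esp1* did not pass. The median of the 364 genes tested was -0.44, and none of the 3 genes was lower past the adjusted *p* value at 20 DAP. *du1* had a log2 difference of 0.95 (SE 0.26, 95% CI 0.34 to 1.55, adjusted *p* = 0.0199 from limma), 1.93-fold higher at 20 DAP below the fold change of 2. By the adjusted *p* value alone 5.49% of the genes tested were higher, and 8.79% were higher with no overlap of the groups, as *du1* was. *BETL4* had a log2 difference of 0.46 (SE 0.40, 95% CI -0.48 to 1.39, adjusted *p* = 0.357) and *esp1* of -0.00 (SE 0.19, 95% CI -0.46 to 0.45, adjusted *p* = 0.984), and the values of both overlapped between the stages.

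The values of *BETL4* and *du1* in *smk7a* depended on single libraries. Without replicate 1 of *smk7a* at 20 DAP, the log2 difference of *BETL4* between the stages was 0.96 (adjusted *p* = 0.00551 from limma), still below the fold change of 2, whereas it was 0.22 and 0.20 without replicates 2 and 3 of the same group. Without replicate 2 of *smk7a* at 12 DAP, the library with 9.08 FPKM of *du1*, the difference of *du1* was 0.63 (adjusted *p* = 0.00105), and without replicate 1 or 3 of *smk7a* at 12 DAP it was 1.10 in both fits and passed both thresholds. Without replicate 2 or 3 of *smk7a* at 20 DAP the adjusted *p* of *du1* was 0.0591 and 0.0538. Median of ratios scaling gave 1.39 for *du1* (adjusted *p* = 0.00789, past both thresholds, as were 4.95% of the genes tested in this direction), 0.90 for *BETL4* (adjusted *p* = 0.0975) and 0.44 for *esp1* (adjusted *p* = 0.0902).

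**Figure D2:**
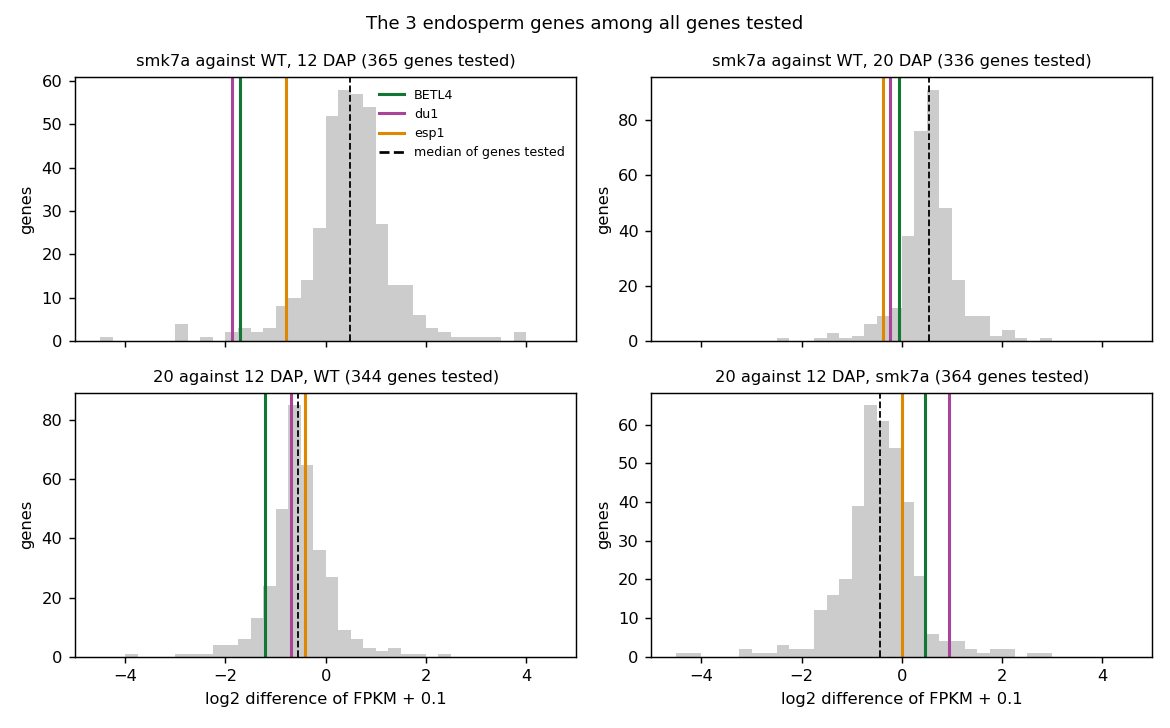
Distribution of the log2 differences of all genes tested (grey bars, number of genes per bin of 0.25) in the 4 comparisons of genotype and stage, with *BETL4*, *du1* and *esp1* as coloured lines and the median of the genes tested as a dashed line. At 12 DAP the 3 genes lie at -1.71, -1.86 and -0.79, left of the median of 0.48, and in *smk7a* between the stages they lie right of the median of -0.44.

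The question whether the stage effect differed between the genotypes was addressed by the interaction term of a model over all 12 samples. It is also the change of the genotype effect from 12 to 20 DAP, and 375 genes were tested, with a median of 0.15. The interaction of *du1* was 1.64 (SE 0.31, 95% CI 0.96 to 2.32, adjusted *p* = 0.00336 from limma), close to the 1.66 of *BETL4* (SE 0.45, adjusted *p* = 0.0226). Both passed the thresholds, as did 6.67% of the genes tested with a positive interaction, and they held places 362 and 363 of 375. For *esp1* the interaction was 0.41 (SE 0.22, 95% CI -0.08 to 0.90, adjusted *p* = 0.224), which did not pass. In *du1* the interaction passed without any 1 of the 12 samples, with values from 1.32 to 1.80. In *BETL4* the adjusted *p* was 0.0541 without replicate 2 and 0.0541 without replicate 3 of *smk7a* at 20 DAP, and 0.0554 without replicate 2 of the WT at 20 DAP. Under median of ratios scaling the interactions were 1.58, 1.55 and 0.32 for *BETL4*, *du1* and *esp1*, so that scaling moved them little. The median of the genes tested moved from 0.15 to 0.06. The scaling acts on all genes of a library alike, so the small move is not particular to these 3 genes.

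**Figure D3:**
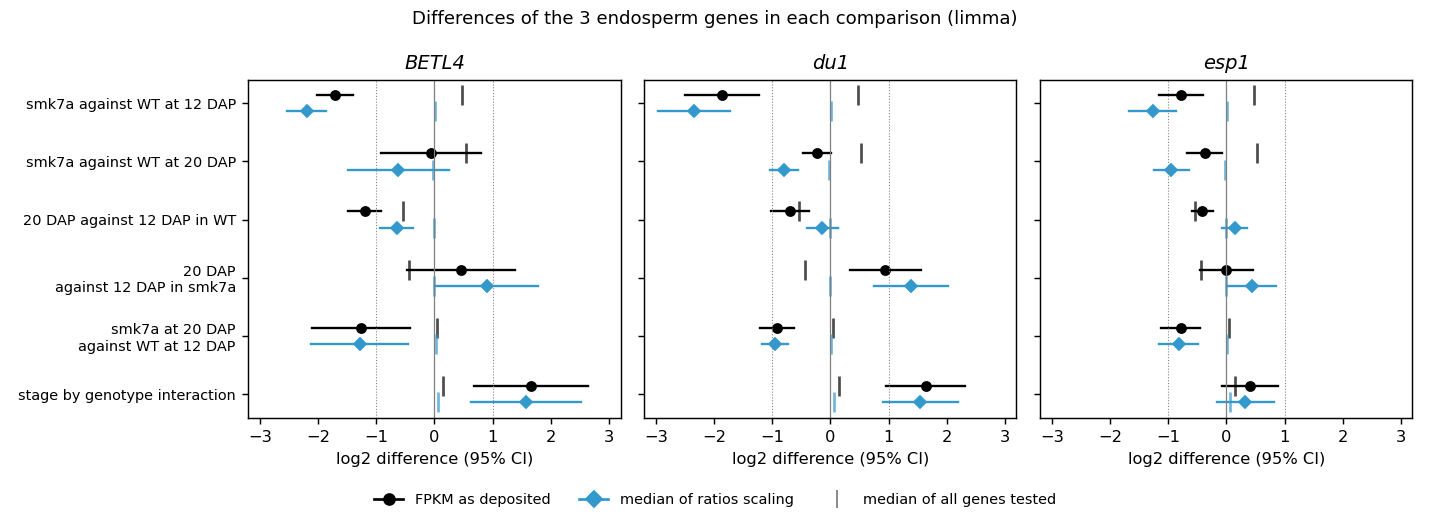
Log2 differences of *BETL4*, *du1* and *esp1* in the 5 comparisons of groups and the interaction, with 95% CI from limma, for FPKM as deposited (black circles) and after median of ratios scaling (blue diamonds). Vertical ticks give the median of all genes tested and dotted lines a fold change of 2; the interactions of *BETL4* (1.66) and *du1* (1.64) lie right of the dotted line under both scalings, and that of *esp1* (0.41) lies left of it.

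A last comparison of groups set *smk7a* at 20 DAP against the WT at 12 DAP, kernels of different age. Here the summed FPKM were closer and the median of the 355 genes tested was 0.05. All 3 genes were still lower in the older *smk7a* kernels, without overlap of the values, as were 19.7% of the genes tested. *BETL4* was 2.39-fold lower (log2 difference -1.26, SE 0.36, 95% CI -2.10 to -0.41, adjusted *p* = 0.0385 from limma) and passed both thresholds, as did 3.94% of the genes tested in this direction. *du1* was 1.89-fold lower (log2 difference -0.92, SE 0.13, adjusted *p* = 0.00269) and *esp1* 1.73-fold lower (log2 difference -0.79, SE 0.15, adjusted *p* = 0.00775), and by the adjusted *p* value alone 10.7% of the genes tested were lower. The call of *BETL4* was lost without replicate 1 of *smk7a* at 20 DAP, where the difference was -0.76, and without WT replicate 1, 2 or 3 of 12 DAP, where the adjusted *p* was 0.103, 0.0850 and 0.0899. *du1* passed the fold change of 2 without WT replicate 3 of 12 DAP, at -1.03. The comparisons share groups of samples, for example the WT at 12 DAP, and are therefore not independent of each other.

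Ratios of 2 genes inside the same library do not depend on how the libraries were scaled, and 15 differences of ratios between groups were tested (3 pairs of genes in 5 comparisons). The ratio of *BETL4* to *esp1* was 1.20 in the WT at 12 DAP and 0.630 in *smk7a* at 12 DAP, with no overlap, a log2 difference of -0.93. In the WT it was 0.702 at 20 DAP, again with no overlap with 12 DAP (log2 difference -0.79). The ratio of *du1* to *esp1* was 0.240 in the WT and 0.124 in *smk7a* at 12 DAP, a log2 difference of -1.08 with no overlap, and it was 0.220 in *smk7a* at 20 DAP, a difference between the stages of 0.95 with no overlap. Without replicate 2 of *smk7a* at 12 DAP these differences of *du1* to *esp1* were -0.59 and 0.46. The exact two-sided permutation test gave *p* = 0.1 for each of these 4 differences, the smallest possible, and 0.375 after Benjamini-Hochberg adjustment over the 15 tests, so none passed.

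The ratio of *BETL4* to *du1* overlapped between the groups in all 5 comparisons. Its mean was 5.05 in the WT and 6.12 in *smk7a* at 12 DAP, and 3.60 and 4.38 at 20 DAP. It spread most in *smk7a*, with 3.81, 9.92 and 4.62 in replicates 1, 2 and 3 at 12 DAP and 2.04, 5.39 and 5.72 at 20 DAP. The log2 difference of this ratio between *smk7a* and the WT was 0.15 at 12 DAP, and its sign depended on the replicates, since it was -0.26 without replicate 2 of *smk7a*. At 20 DAP it was 0.18, and -0.04 and -0.087 without replicates 2 and 3 of *smk7a*. For *smk7a* at 20 DAP against the WT at 12 DAP it was -0.34, and 0.15 without replicate 1 of *smk7a*.

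**Figure D4:**
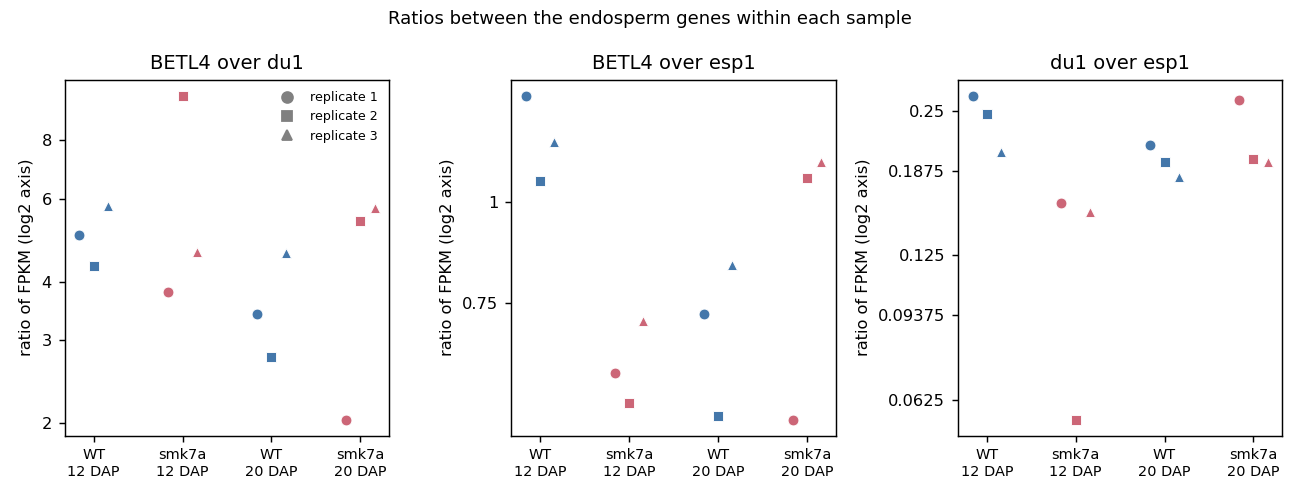
Ratios of FPKM between the 3 genes within each sample (log2 axis), by genotype and stage, with a symbol for each replicate. The ratio of *BETL4* to *esp1* is at 1.06 or above in the WT at 12 DAP and at 0.712 or below in *smk7a* at 12 DAP, whereas the ratios of *BETL4* to *du1* overlap in all 5 comparisons.

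At 12 DAP the coefficients of variation of the 3 genes were larger in *smk7a* than in the WT, although the median over genes with a mean of at least 10 FPKM was 13.3% and 13.5%, respectively. That of *BETL4* was 3.62% in the WT, smaller than in most genes, and 14.3% in *smk7a*, that of *du1* 13.7% and 33.6%, and that of *esp1* 8.59% and 21.3%. At 20 DAP it was 20.5% and 47.4% for *BETL4*, and 3.92% and 17.5% for *esp1*, but 11.8% and 2.38% for *du1*, beside medians over genes of 9.85% in the WT and 6.74% in *smk7a*. Replicate 1 of *smk7a* at 20 DAP deviated from the other 2 replicates by -1.49 on the log2 scale in *BETL4*, and 1.87% of the 375 genes deviated further down. In the same library *esp1* deviated by -0.46 and *du1* by -0.04, and the median of the 375 genes by -0.06, so the library as a whole was not shifted. Replicate 2 of *smk7a* at 12 DAP deviated by -0.96 in *du1*, further down than all but 0.8% of the genes, but by 0.28 in *BETL4* and 0.50 in *esp1*, with a median of all genes of 0.01. In the WT, the largest deviation of the 3 genes was -0.54, in *BETL4* of replicate 2 at 20 DAP, where the median gene deviated by -0.18.

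**Figure D5:**
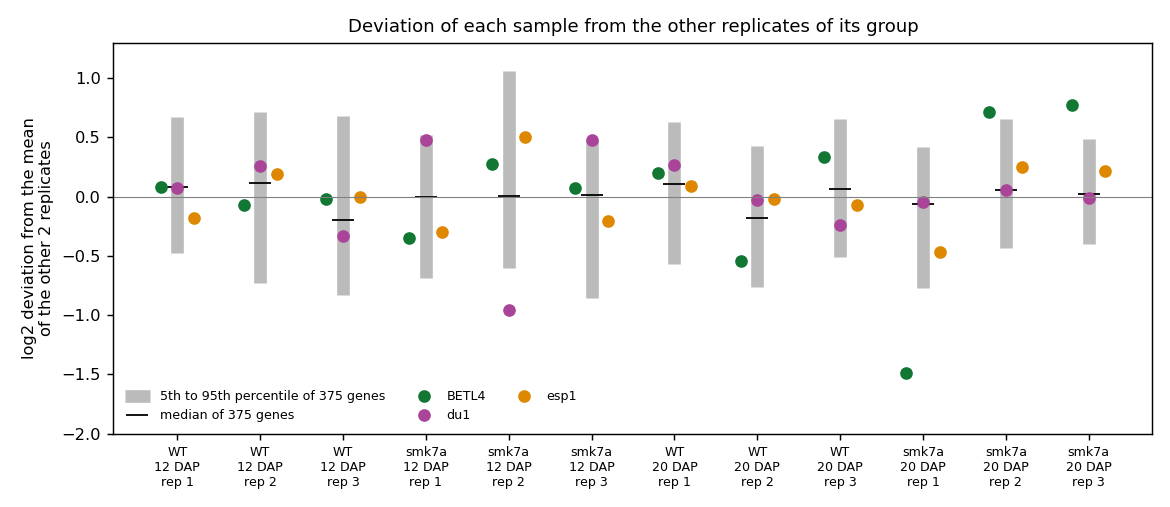
Deviation of each sample from the mean of the other 2 replicates of its group, on the log2 scale, for *BETL4*, *du1* and *esp1* (points) and for 375 genes (grey bar, 5th to 95th percentile, with the median as a line). The points of *BETL4* in replicate 1 of *smk7a* at 20 DAP (-1.49) and of *du1* in replicate 2 of *smk7a* at 12 DAP (-0.96) lie below the grey bar.

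The genes with the most similar course over the 12 samples were named by the smallest root mean square difference of the log2 levels after each gene was centred on its own mean, a description over 374 other genes from shared libraries. For *du1* the nearest gene was *Zm00001d002089* (tetratricopeptide repeat-like protein), with a difference of 0.251 compared with a median of 1.02 over all genes. It had a mean of 26.0 FPKM in the WT and 8.36 FPKM in *smk7a* at 12 DAP, and of 19.1 and 15.0 FPKM at 20 DAP. *Zm00001d000009*, which has no description, was next with 0.470, followed by *Zm00001d000038* (serine/threonine-protein kinase D6PKL1) with 0.509. Both were weakly expressed, with group means of 1.69 to 4.20 FPKM and of 1.22 to 2.67 FPKM, respectively.

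For *BETL4* the nearest were *Zm00001d000009* (0.381), *esp1* itself (0.461) and *Zm00001d000123* (NAD(P)-binding Rossmann-fold protein, 0.493), with a median of 0.965. For *esp1* they were *Zm00001d000009* (0.274), *Zm00001d000439* (SNARE associated Golgi protein family, 0.293) and *Zm00001d000038* (0.293), with a median of 0.691. *BETL4* was the 6th and *esp1* the 7th nearest gene to *du1*, and *du1* was the 9th nearest to *BETL4*. Seen from *esp1*, the same differences of 0.461 to *BETL4* and 0.560 to *du1* took places 36 and 93. The median difference to all genes was smallest for *esp1*, so such places cannot be compared between the 3 genes. Under median of ratios scaling, 3, 2 and 3 of the 3 nearest genes of *BETL4*, *du1* and *esp1* were shared with the unscaled values.

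The lists picked by words in the annotation held few other genes of these pathways among the 720 genes. Their words matched no transporter of sugars or amino acids, although the 720 genes include such transporters that were tested. The list for starch and its sugar precursors held *du1* and 2 genes for cell wall invertases, which split sucrose outside the cell, *Zm00001d001941* (invertase cell wall4, at most 1.06 FPKM) and *Zm00001d001944* (insoluble isoenzyme CWINV3, at most 0.0378 FPKM). Neither was expressed enough to be tested. The storage protein list held 5 germin-like genes, of which none was above 0.299 FPKM in any sample. No other gene described as a BETL or endosperm specific protein was present. The gene for glucose 6-phosphate/phosphate translocator1 (*Zm00001d000021*), a carrier of sugar phosphates into plastids, was added after its values were seen. It had 137 ± 4.71 and 126 ± 15.4 FPKM in the WT and *smk7a* at 12 DAP, and 88.2 ± 1.03 and 92.3 ± 8.02 FPKM at 20 DAP (SD, n = 3 each). Its log2 difference between *smk7a* and the WT was -0.12 at 12 DAP (adjusted *p* = 0.455 from limma) and 0.06 at 20 DAP (adjusted *p* = 0.539), and its interaction 0.18 (adjusted *p* = 0.445), so it did not pass where *BETL4* and *du1* did. After median of ratios scaling the differences between the genotypes were -0.61 at 12 DAP (adjusted *p* = 0.0177) and -0.51 at 20 DAP (adjusted *p* = 0.00737).

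In whole kernels, fewer cells of a type and less RNA of a gene per cell cannot be told apart. *BETL4* and *du1* were the only markers of the transfer layer and the starchy endosperm in the table, so neither cell type could be checked with a second gene. Of 9 genes listed for the embryo, 8 were at 0 FPKM in all 12 samples, and the summed level, that of *Zm00001d000135* (late embryogenesis abundant family) alone, was at most 19.9 FPKM in the WT of 12 DAP but at least 28.0 FPKM in *smk7a* of the same age. At 20 DAP it reached 12.7 FPKM in the WT and 15.4 FPKM in *smk7a*. Of 6 genes listed for pericarp and green tissue, 3 were at 0 FPKM in all 12 samples and 5 never above 1 FPKM. The gene above it was *Zm00001d001857* (light harvesting complex photosystem II subunit 6). In *smk7a* at 12 DAP it was lower by 2.76 on the log2 scale (adjusted *p* = 0.000496 from limma) and passed both thresholds, as did 4.11% of the genes tested in this direction. The sum of the 6 genes in the WT was 4.14 to 9.50 FPKM at 12 DAP and 2.52 to 4.44 FPKM at 20 DAP. In *smk7a* it was 0.708 to 1.10 FPKM at 12 DAP and 0.313 to 3.62 FPKM at 20 DAP. The single gene listed for the aleurone, *Zm00001d002094*, was at 0.164 to 0.732 and 0.784 to 2.13 FPKM at 12 DAP and at 0.422 to 1.07 and 0.391 to 1.01 FPKM at 20 DAP, in the WT and *smk7a*, respectively. The groups of 12 DAP did not overlap in any of these 3 sums. Without overlap, 9.04% of the 365 genes tested were lower in *smk7a* at 12 DAP, the direction of the green tissue sum. The embryo and aleurone sums were higher, the direction of 79.7% of the genes tested by sign alone. The share of genes higher without overlap is not given here, so the separation of these sums has no such background. *Zm00001d002094* was too weak to be among the genes tested at 12 DAP. After median of ratios scaling the log2 difference of *Zm00001d000135* was 0.48 (adjusted *p* = 0.0815 from limma), compared with 0.96 before. The part of such tissue shares in the differences of *BETL4*, *du1* and *esp1* was not tested.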

How the data were processed

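Whole maize kernels of 2 genotypes and 2 stages were sequenced, 4 groups of 3 biological replicates. Groups and replicate numbers were taken from the sample labels. The authors prepared stranded mRNA libraries, trimmed the reads with Trimmomatic, mapped them with HISAT2 to the B73 RefGen_V4 genome and kept perfectly matching reads only. They deposited the expression of each gene as FPKM. The program that made the FPKM and the tool versions are not given in the sources used here. FPKM follow the total of each library, so a gene can move because other genes take more or fewer reads. The copy of the table used here ends after 720 genes, and 0 further value columns were left unused. For their own tests the authors used DESeq2, which needs counts, and limma on the log scale was used here because only FPKM were analysed.

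Values were used as log2(FPKM + 0.1), where the pseudocount hardly affects genes at these levels. limma (version 3.58.1, R version 4.3.3) was fitted to the groups compared alone, with lmFit and a trended eBayes, for genes exceeding 1 FPKM in 3 or more of those samples. The *p* values were adjusted by Benjamini-Hochberg over every gene of the fit. The interaction was fitted over all 12 samples. Exact permutation tests, ratios, ranks and figures were made in Python 3.11.15 (numpy 2.4.6, scipy 1.17.1, pandas 2.3.3, matplotlib 3.10.9). The fits were tested on simulated data.

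Named were the 3 genes, the 3 genes most like each of them, genes sharing their description, and genes of the lists for starch, storage protein, endosperm and kernel cell types picked by words in the annotation. The 3 genes and the lists were chosen with earlier results of these data known. The alternatives were pseudocounts of 1 and 0.01, no filter on low FPKM or one of 5 FPKM, median of ratios scaling, equal summed FPKM, limma without the variance trend, the replicate number as a block, 1 fit over all 12 samples, and fits that each lacked 1 replicate. The name table, 0 of whose identifiers matched the 720 genes, is of another assembly, so no coordinates or sequences are given.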

Additional observations from a re-analysis of the deposited data

Results flagged for a closer look

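The difference between *smk7a* and the WT was not the same at the 2 stages for *BETL4* and *du1*, by the interaction term of limma. For *BETL4* the interaction was 1.66 on the log2 scale (adjusted *p* = 0.0226, and up to 0.0554 with a sample left out), with means in *smk7a* and the WT of 79.8 against 260.3 FPKM at 12 DAP and 121 against 115 FPKM at 20 DAP. The tested log2 difference of *BETL4* at 20 DAP was -0.05, and -0.62 after median of ratios scaling. With single replicates left out, the unscaled difference ranged from -0.31 to 0.44 and changed sign in 3 of 6 fits. Its adjusted *p* from limma then lay between 0.0384 and 0.977, so its direction depended on single libraries. For *du1* the interaction was 1.64 (adjusted *p* = 0.00336, and up to 0.0117 with a sample left out), with means of 14.8 against 52.2 FPKM at 12 DAP and 27.4 against 32.2 FPKM at 20 DAP. A positive interaction past both thresholds was found for 6.67% of the 375 genes tested.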

How the results depend on the processing

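Of 390 recomputed values for 33 results, 359 kept their direction and, where thresholds were applied, their side of them. For the differences of ratios between the genes only the direction was compared. With each library scaled by the median of ratios or to an equal summed FPKM, *esp1* at 12 DAP passed both thresholds (-1.27 and -1.12), as did *du1* in *smk7a* between the stages (1.39 and 1.35). The fall of *BETL4* in the WT between the stages did not pass (-0.65 and -0.64). The stage differences of *esp1* changed sign, to 0.14 and 0.15 in the WT and to 0.44 and 0.40 in *smk7a*. *BETL4* in *smk7a* at 20 DAP against the WT at 12 DAP (-1.26) lost its call with no filter on low FPKM (adjusted *p* = 0.0728 from limma) and without the variance trend (adjusted *p* = 0.0632), compared with 0.0385 before. The causes were not tested. Median of ratios scaling moved the median of all genes tested from 0.48 to 0.01 and from 0.53 to -0.02 between the genotypes at 12 and 20 DAP, and from -0.55 to -0.00 and from -0.44 to -0.01 between the stages in the WT and *smk7a*. The scaling is built to centre the median gene, so this move was set in advance.

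Leaving out each replicate in turn gave ranges of -0.31 to 0.44 for *BETL4* between the genotypes at 20 DAP, -1.51 to -0.76 for *BETL4* in *smk7a* at 20 DAP against the WT at 12 DAP, 0.20 to 0.96 for *BETL4* between the stages in *smk7a*, and 1.40 to 2.16 for its interaction. For *du1* the ranges were 0.63 to 1.10 between the stages in *smk7a* and -1.03 to -0.83 for *smk7a* at 20 DAP against the WT at 12 DAP, and for *esp1* -0.10 to 0.16 between the stages in *smk7a* and -0.46 to -0.22 between the genotypes at 20 DAP. The log2 ratio of *BETL4* to *du1* ranged from -0.26 to 0.43 between the genotypes at 12 DAP, from -0.087 to 0.66 at 20 DAP, and from -0.60 to 0.15 for *smk7a* at 20 DAP against the WT at 12 DAP.

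Of all genes tested, 83, 53, 61, 70 and 29 passed both thresholds in the comparisons of genotype at 12 and 20 DAP, of stage in the WT and *smk7a*, and of *smk7a* at 20 DAP with the WT at 12 DAP. A filter of 5 FPKM gave 54, 30, 29, 43 and 17, and a pseudocount of 1 gave 58, 33, 33, 53 and 15. Median of ratios scaling gave 58, 28, 32, 43 and 26, and equal summed FPKM 59, 27, 33, 45 and 32. Under median of ratios scaling the share of higher genes among those passing was 48.3% instead of 81.9%, 46.4% instead of 90.6%, 53.1% instead of 11.5%, and 41.9% instead of 15.7% in the first 4 of these comparisons. Because the scaling centres the median gene by construction, part of this change was set in advance. The replicate number as a block changed no call of the 3 genes and gave 83, 53, 61, 70 and 33 genes. Samples with the same number did not deviate together, with correlations from -0.28 to 0.18 over the 4 comparisons of genotype and stage, so the numbers were not taken as pairs. FPKM hold no read totals. The authors report the average number of clean reads per sample, but it was not used here, so what depth limits was not tested.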
